A study of Rattus norvegicus with 19 samples.

Results

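The genes described here encode the nuclear-encoded subunits of the mitochondrial respiratory chain and of ATP synthase, together with assembly factors of complex I, measured in adult rat liver. Members were chosen by gene symbol alone (the Nduf, Uqcr, Cox4 to Cox8, Atp5 and Sdha to Sdhd families), from probe sets annotated to a single gene. They came to 89 probe sets for 84 genes among the 15923 probe sets of a first Affymetrix array type and 8 probe sets for 8 genes among the 15333 of a second. Across both array types they were 85 of 13811 genes, of which 7 were measured on both. Of the 118 protein-coding genes that the RefSeq annotation lists under these symbols, 84 were measured. The remaining member, Cox6c-ps1, is annotated as a transcribed pseudogene, and a probe set for it may also bind the transcript of Cox6c. Another 7 probe sets were annotated to a member symbol together with a second gene, so that Atp5mc1, Atp5mc2, Cox7a2, Uqcrb, Ndufs5 and Ndufa10 were not analysed here. A further probe set of Cox5a was lost in the same way.

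Rats of the PCN group received a single intraperitoneal dose of 100 mg/kg pregnenolone-16α-carbonitrile (PCN), a man-made steroid and ligand of the rodent pregnane X receptor, the nuclear receptor that turns on drug-metabolizing genes. Rats of the corn oil group were injected with the vehicle alone. All animals had been fasted overnight, a state that both groups share, and livers were taken 8 h after the injection. The labels give no strain, sex or age beyond adult. There were 5 livers of each group on the first array type, and 5 PCN and 4 corn oil livers on the second, since corn oil replicate 2 of that type was not analysed here. The series asked whether PCN turns on genes other than those of drug metabolism as a defence against stress, and the comparison below asks what happened to the respiratory chain under that treatment.

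The respiratory chain passes electrons taken from NADH by complex I, or from succinate by complex II, through ubiquinone to complex III, and on through cytochrome c to complex IV, where oxygen is reduced. Complexes I, III and IV pump protons across the inner mitochondrial membrane, and ATP synthase uses their return flow to make ATP. A few central subunits are encoded by mitochondrial DNA and the rest by nuclear genes, whose transcription is held in step by nuclear respiratory factors and by coactivators of the PGC-1 family. In liver this system supplies the ATP for gluconeogenesis, urea synthesis and drug metabolism, and in fasting it draws mainly on fatty acids.

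Values are log2 expression per probe set as deposited, and the number of arrays limits the precision of every comparison. Differences are PCN minus corn oil on that scale, called log2 fold changes, and each array type was fitted alone with limma. Dim probe sets, those whose mean fell under the 30th percentile of their table, were set aside. A probe set was called where its Benjamini-Hochberg adjusted p fell below 0.05. On the first array type 3.25% of 11106 tested probe sets were called in either direction, and on the second 5.4% of 10693. The livers carried the hepatocyte markers at high levels (Alb averaged 15.14 and Ttr 14.39), and by limma 0 of 9 hepatocyte markers were called on the first array type, with 1 at an unadjusted p below 0.05. The 3 red cell markers were lower without a call (Hbb -0.39, Alas2 -0.59), and their part in the results was not tested. Of these, 2 were lower at an unadjusted p below 0.05 (limma), beside 6.71% of all tested probe sets of the first array type. Because these are bulk samples, fewer cells of a type and less RNA per cell cannot be told apart. Some arrays stood apart from their group. Deviations from each probe set's mean over all arrays of a type, which also hold the treatment difference, were correlated between arrays. On the first array type the coefficients were 0.365 to 0.614 among corn oil replicates 3, 4 and 5. They were -0.164 to 0.0227 between corn oil replicates 1 or 2 and the other corn oil arrays. PCN replicate 2 of that array type correlated at -0.261 to 0.0776 with the other PCN arrays, beside 0.0913 to 0.413 among those others. On the second array type, PCN replicate 5 correlated at -0.375 to -0.112 with the other PCN arrays and at -0.151 to 0.137 with the corn oil arrays.

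On the first array type most respiratory chain probe sets had slightly negative log2 fold changes after PCN, and no single gene passed the test. Of the 89 member probe sets 82, for 79 genes, were bright enough to be tested. By limma, 0 of these 82 were called in either direction, against the 3.25% of all tested probe sets, and the smallest adjusted p was 0.148, that of Ndufb5. At an unadjusted p below 0.05, 9 were lower and 0 higher, which is 11% of the members, beside 6.71% of all tested probe sets and 10.7% of equally bright non-members that were lower at this level. In 1 of 82, Atp5mc3, every PCN liver lay below every corn oil liver, beside 2.05% of all tested probe sets. The log2 fold change was negative for 70 of the 82 and positive for 12, where 50% of all tested probe sets were negative. Its median was -0.10, beside 0.00 over all tested probe sets, and single values ran from -0.37 for Ndufb5 to 0.16 for Ndufaf4. In 80 of the 82 the 95% interval lay wholly within a 1.5-fold change in either direction, beside 82% of all tested probe sets. The exceptions among the members were Ndufb5 and Ndufb7. The median rests partly on single livers, being -0.05 with 60 negative values without PCN replicate 2, and -0.09 and -0.08 without corn oil replicates 1 and 2.

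**Figure D1:**
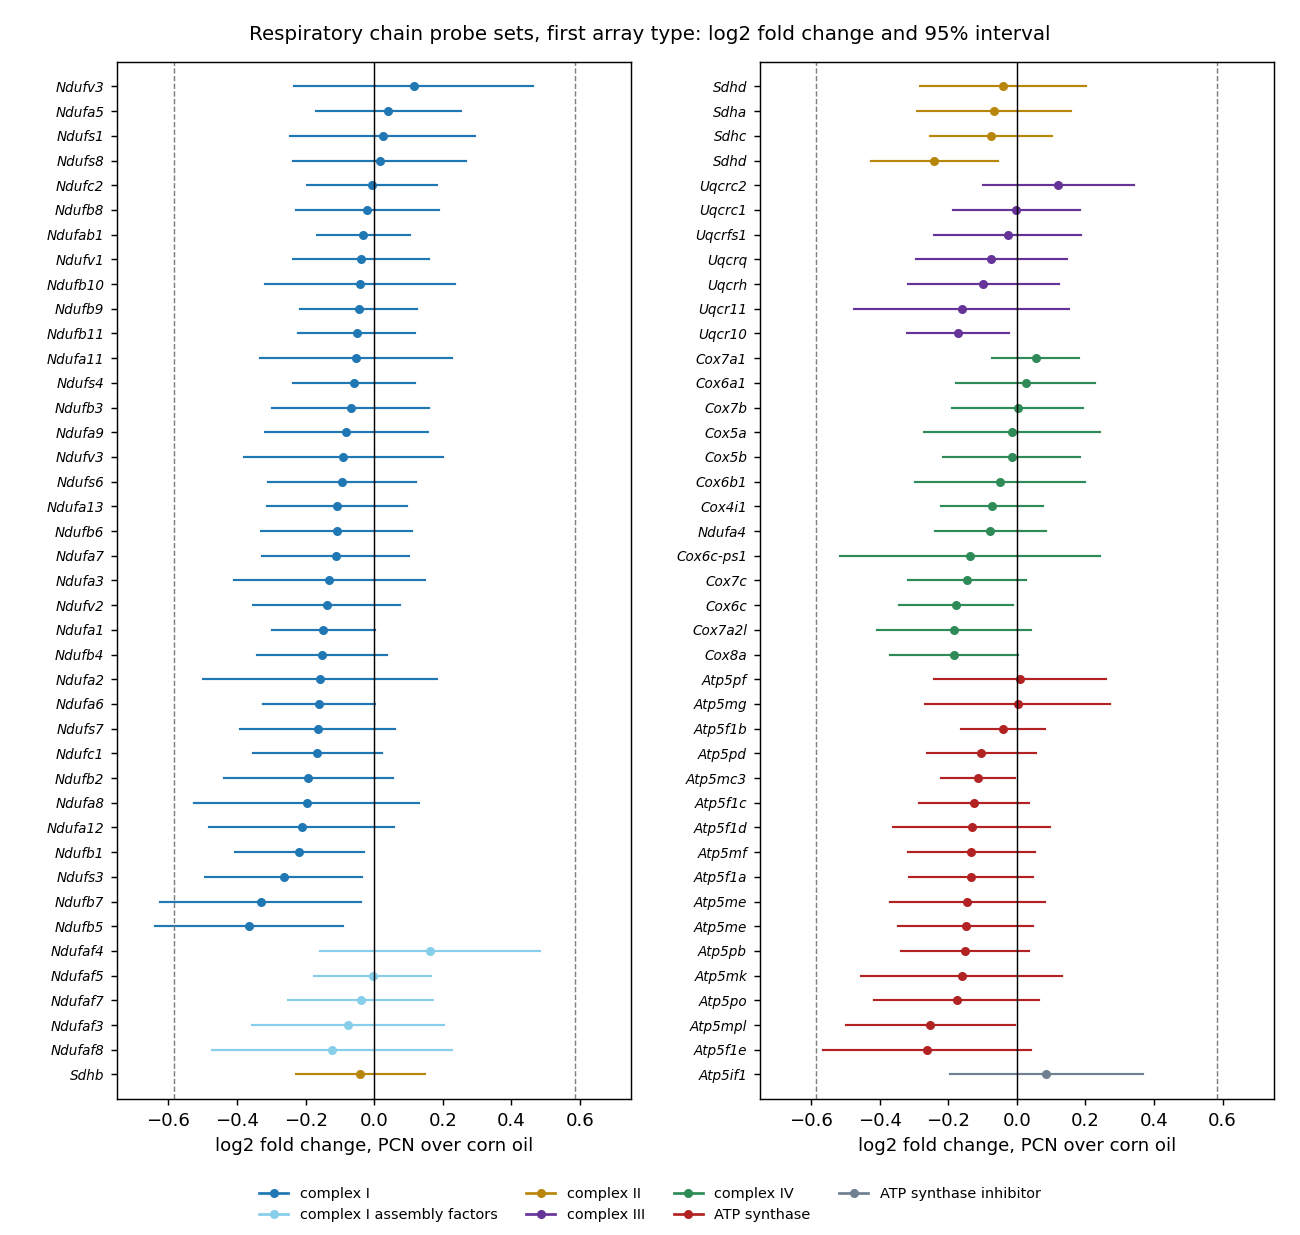
Log2 fold change of PCN over corn oil (horizontal axis) for each of the 82 tested respiratory chain probe sets of the first array type, one row per probe set, sorted within complexes. Points are estimates, bars are 95% intervals from limma, and dashed lines mark a 1.5-fold change; 70 of 82 points lie left of 0 and 80 of 82 bars stay between the dashed lines.

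Complex I oxidizes NADH and is the largest assembly of the chain. Its 35 tested probe sets, for 34 genes, had a median log2 fold change of -0.11, with 31 negative, 0 called by limma and 4 lower at an unadjusted p below 0.05. Core subunits, which include the carriers of the redox centres, had a median of -0.09 over 6 probe sets, and accessory subunits, which surround and stabilize the core, -0.11 over 29. Ndufb5, an accessory subunit of the membrane arm, had log2 values of 11.06, 11.15, 11.23, 11.30 and 11.10 in PCN livers 1 to 5, against 11.45, 12.00, 11.55, 11.39 and 11.28 in corn oil livers 1 to 5. PCN liver 1 was the lowest of all and corn oil liver 2 the highest, and the groups overlapped by PCN liver 4 lying above corn oil liver 5. The log2 fold change of Ndufb5 was -0.37 ± 0.13 (SE, limma), with an interval of -0.64 to -0.09. Ndufs3, a core subunit of the arm that protrudes into the matrix, had 10.81, 10.58, 10.93, 11.13 and 10.70 in PCN livers 1 to 5, against 11.13, 11.03, 11.18, 11.10 and 11.03 in corn oil livers 1 to 5. Here the corn oil livers were close together and PCN liver 4 reached into their range. Its log2 fold change was -0.26 ± 0.11 (SE, limma, adjusted p = 0.217).

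Ndufb7 and Ndufb1, accessory subunits of the same arm as Ndufb5, had log2 fold changes of -0.33 and -0.22; with Ndufs3 and Ndufb5 they were the complex I subunits with an unadjusted p below 0.05. Ndufb7, Ndufb1, Ndufs3, Ndufv2, Ndufv3, Ndufaf8, Ndufa6, Atp5mc3 and Atp5mpl fall outside the naming rule and were picked after their values were seen. The same holds for the dim members Cox6b2, Ndufa4l2 and Ndufa9, named below. Other subunits lay on both sides of the complex's median. Ndufv1, which binds NADH and flavin, had a log2 fold change of -0.04 (interval -0.24 to 0.16), and its partner Ndufv2 -0.14 (-0.35 to 0.08). Ndufs1, the core subunit with several iron-sulfur clusters, had 0.03 (-0.24 to 0.30). Ndufs4, an accessory subunit whose loss causes a severe neurological disease in mice and humans, had -0.06 (-0.24 to 0.12). Ndufab1, which is also the acyl carrier protein of mitochondrial fatty acid synthesis, had -0.03 (-0.17 to 0.10), and the value closest to 0 was -0.01 for Ndufc2. Both probe sets of Ndufv3 were tested and they differed in sign, at -0.09 for the brighter and 0.12 for the dimmer.

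The 5 tested assembly factors of complex I, which build the complex without staying in it, had a median of -0.04. Their values spanned the range from -0.12 for Ndufaf8 to 0.16 for Ndufaf4, with Ndufaf5 at 0.00, and 0 were called by limma, with 0 at an unadjusted p below 0.05. Ndufaf4 had log2 values of 8.82, 8.35, 8.60, 8.92 and 8.36 in PCN livers 1 to 5, against 8.28, 8.44, 8.88, 8.25 and 8.40 in corn oil livers 1 to 5. The groups overlapped throughout, with the highest value in PCN liver 4 and the next in corn oil liver 3.

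Complex II, succinate dehydrogenase, is the enzyme shared by the chain and the citrate cycle. All 5 of its probe sets were tested and all were negative, with a median of -0.07, 0 called by limma and 1 lower at an unadjusted p below 0.05. The brighter probe set of Sdhd, a membrane anchor subunit, had 11.80, 11.77, 11.64, 11.88 and 11.96 in PCN livers 1 to 5, against 12.23, 11.92, 12.08, 12.00 and 12.02 in corn oil livers 1 to 5. The corn oil livers lay higher apart from an overlap of PCN liver 5 with corn oil liver 2. Its log2 fold change was -0.24 ± 0.09 (SE, limma, adjusted p = 0.161), whereas the second Sdhd probe set gave -0.04. The flavoprotein subunit Sdha had a log2 fold change of -0.07 (interval -0.29 to 0.16). For the iron-sulfur subunit Sdhb it was -0.04 (-0.23 to 0.15), and for the other anchor Sdhc -0.08 (-0.25 to 0.10).

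Complex III hands electrons from ubiquinol to cytochrome c. Its 7 probe sets had a median of -0.07, with 6 negative, 0 called by limma and 1 lower at an unadjusted p below 0.05. Uqcr10, a small subunit of the complex, had 12.57, 12.69, 12.50, 12.66 and 12.65 in PCN livers 1 to 5, against 12.84, 12.88, 12.68, 12.84 and 12.67 in corn oil livers 1 to 5. Corn oil livers 3 and 5 lay just within the PCN range, and the other corn oil livers above it. Its log2 fold change was -0.17 ± 0.07 (SE, limma, adjusted p = 0.215). The core proteins gave values with overlapping intervals, Uqcrc1 with 0.00 (interval -0.19 to 0.18) and Uqcrc2 with 0.12 (-0.10 to 0.34). The Rieske iron-sulfur protein Uqcrfs1, the subunit that takes electrons from ubiquinol, had -0.03 (-0.24 to 0.19).

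Complex IV, cytochrome c oxidase, includes subunits with forms of their own in liver and in other tissues, and the 5 probe sets set aside as dim all stood for forms of other tissues or of hypoxia. Of its 18 probe sets 13 were tested, with a median of -0.07, 10 negative, 0 called by limma and 1 lower at an unadjusted p below 0.05. Cox6c, a small structural subunit, had 12.43, 12.45, 12.66, 12.73 and 12.66 in PCN livers 1 to 5, against 12.83, 12.84, 12.70, 12.77 and 12.69 in corn oil livers 1 to 5. PCN livers 1 and 2 were lowest, and PCN liver 4 lay above corn oil livers 3 and 5. The log2 fold change of Cox6c was -0.18 ± 0.08 (SE, limma, adjusted p = 0.248). Cox8a, the ubiquitous form of the smallest subunit, had the largest log2 fold change of the complex, -0.18 (interval -0.37 to 0.00). Cox7a2l, which ties complex III and complex IV into supercomplexes, had -0.18 (-0.41 to 0.04).

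At the other end, Cox7b had a log2 fold change of 0.00, Cox5b -0.01 and Cox6a1, the liver form of its subunit, 0.03, each with an interval that includes changes of either sign. Cox4i1, the ubiquitous form of the subunit through which ATP regulates the enzyme, had 13.12, 13.11, 12.95, 13.21 and 13.15 in PCN livers 1 to 5, against 13.23, 13.00, 13.22, 13.23 and 13.22 in corn oil livers 1 to 5. Corn oil liver 2 lay below its group and among the PCN values, and the log2 fold change was -0.07 (-0.22 to 0.08). Ndufa4, long counted with complex I and now placed in complex IV, had -0.08. The single-gene probe set of Cox5a (mean 7.84) had -0.01. The lung and hypoxia form Cox4i2 averaged 6.57 and the heart and muscle forms Cox6a2 and Cox8b 6.08 and 6.01, all under the filter of 6.67 and so untested. Also under it were Cox6b2, the testis form, at 5.28 and Ndufa4l2, a hypoxia-induced paralog of Ndufa4, at 6.15. Cox7a1, the muscle form of its subunit, passed the filter with a mean of 7.35 and had a log2 fold change of 0.05 (-0.07 to 0.18). Striated muscle markers were mostly dim as well, 6 of 7 being under the filter, with Myh1 (mean 11.99, log2 fold change 0.01) as the exception.

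ATP synthase had a median log2 fold change of -0.13 over 16 probe sets for 15 genes, with 14 negative, 0 called by limma and 2 lower at an unadjusted p below 0.05. The 5 subunits of the catalytic F1 part were all negative, with the same median of -0.13. Atp5mc3, a gene for the subunit of the rotating c-ring, had 13.29, 13.33, 13.35, 13.40 and 13.32 in PCN livers 1 to 5, against 13.41, 13.42, 13.54, 13.47 and 13.43 in corn oil livers 1 to 5. Its highest PCN value, in liver 4, fell just short of its lowest corn oil value, in liver 1, and this was the sole tested probe set of the chain whose groups did not overlap. The difference was small, a log2 fold change of -0.11 ± 0.05 (SE, limma, adjusted p = 0.254). Atp5f1e, the epsilon subunit of the central stalk, had 12.11, 11.73, 12.15, 12.47 and 12.36 in PCN livers 1 to 5, against 12.57, 12.70, 12.33, 12.38 and 12.17 in corn oil livers 1 to 5. PCN liver 2 was far below the rest and PCN liver 4 above corn oil livers 3, 4 and 5. With -0.26 ± 0.14 (SE, limma, adjusted p = 0.364) it had the largest log2 fold change of the complex.

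The catalytic subunits gave values with overlapping intervals, and differences between subunits were not tested. Atp5f1a, the alpha subunit, had -0.13 (interval -0.32 to 0.05) and Atp5f1b, the beta subunit that makes ATP, -0.04 (-0.16 to 0.08). Atp5f1c, the gamma subunit that turns within them, had -0.13 (-0.29 to 0.03). Atp5mpl, a small proteolipid of the membrane part, was the other subunit with an unadjusted p below 0.05, at -0.25. Coupling factor 6, encoded by Atp5pf, had 0.01 and the membrane subunit Atp5mg 0.00. Atp5if1, the protein that stops the enzyme from running backwards and splitting ATP, had 8.52, 8.23, 8.58, 8.57 and 8.52 in PCN livers 1 to 5, against 8.61, 8.71, 8.33, 8.02 and 8.31 in corn oil livers 1 to 5 on its 1 tested probe set of 3. Its log2 fold change was 0.09 (-0.20 to 0.37), with the corn oil livers spread more widely than the PCN livers.

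Array by array, negative deviations were not shared by every PCN liver. For each liver, the deviation of every tested member from its own mean over the 10 arrays was averaged over the 82 probe sets. This gave -0.09, -0.19, -0.01, 0.08 and -0.02 in PCN livers 1 to 5, against 0.11, 0.10, 0.10, 0.01 and -0.09 in corn oil livers 1 to 5. PCN liver 4 lay above corn oil livers 4 and 5, and corn oil liver 5 lay at the level of PCN liver 1, so the groups overlapped. In PCN liver 2, 75 of 82 members were below their own mean, and in PCN liver 4 only 19 were; among corn oil livers the counts ran from 9 in liver 1 to 63 in liver 5. The group means, -0.05 for PCN and 0.05 for corn oil, were apart by about as much as the pooled SD between livers of a group, 0.094. The upper quartile of all probe sets was 9.14 in PCN liver 2 and in corn oil livers 4 and 5, and 9.33 in PCN liver 4, and the part of this spread in the members' levels was not tested.

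**Figure D2:**
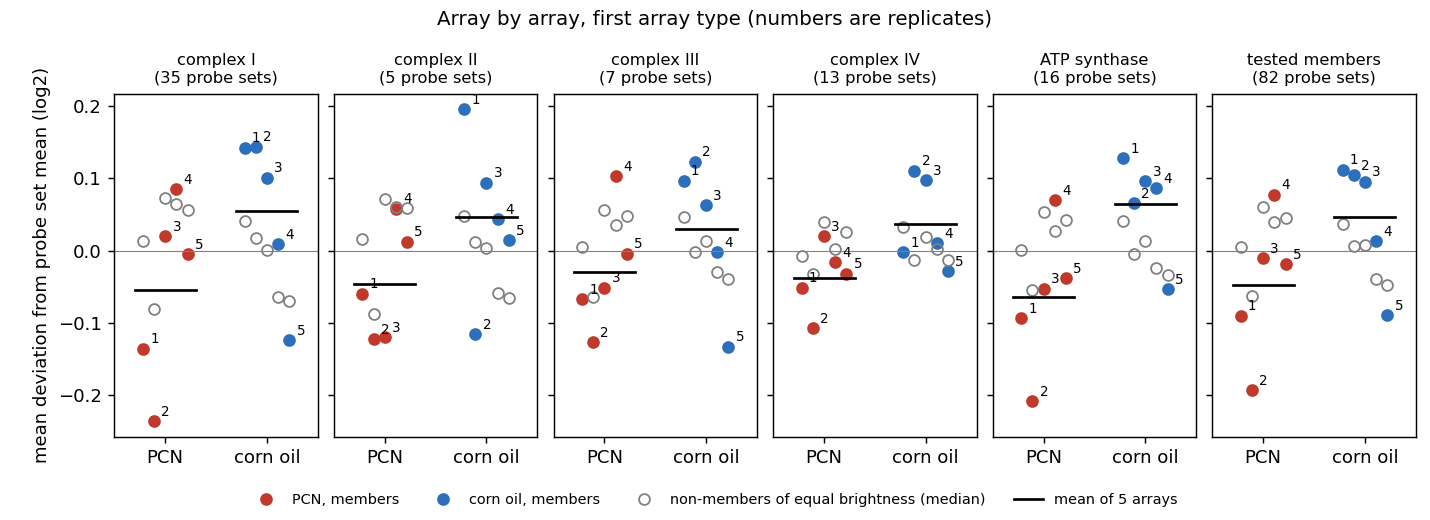
Mean deviation from each probe set's own mean (vertical axis, log2) for every array of the first type, by complex and over all 82 tested probe sets, with replicate numbers beside the points. Filled points are members (red PCN, blue corn oil), open points the median of non-members of equal brightness, and bars the mean of 5 arrays; PCN liver 2 is the lowest filled point in all panels but complex III, where corn oil liver 5 lies just below it.

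In PCN livers 1 and 2 all 5 complexes averaged below their own mean, and in corn oil liver 3 all averaged above it. In corn oil liver 2 complex II alone was below. PCN liver 2 averaged -0.24 for complex I, -0.12 for complex II, -0.13 for complex III, -0.11 for complex IV and -0.21 for ATP synthase. Corn oil liver 1 averaged 0.14, 0.20, 0.10, 0.00 and 0.13 for the same complexes. The narrowest range was that of complex IV, with PCN livers between -0.11 and 0.02 and corn oil livers between -0.03 and 0.11. After each group's mean was removed, pairs of tested members correlated at 0.32 on average over the 10 arrays, beside 0.08 for non-members that were equally bright. These pairs share their arrays, so the coefficients are a description of these livers.

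**Figure D3:**
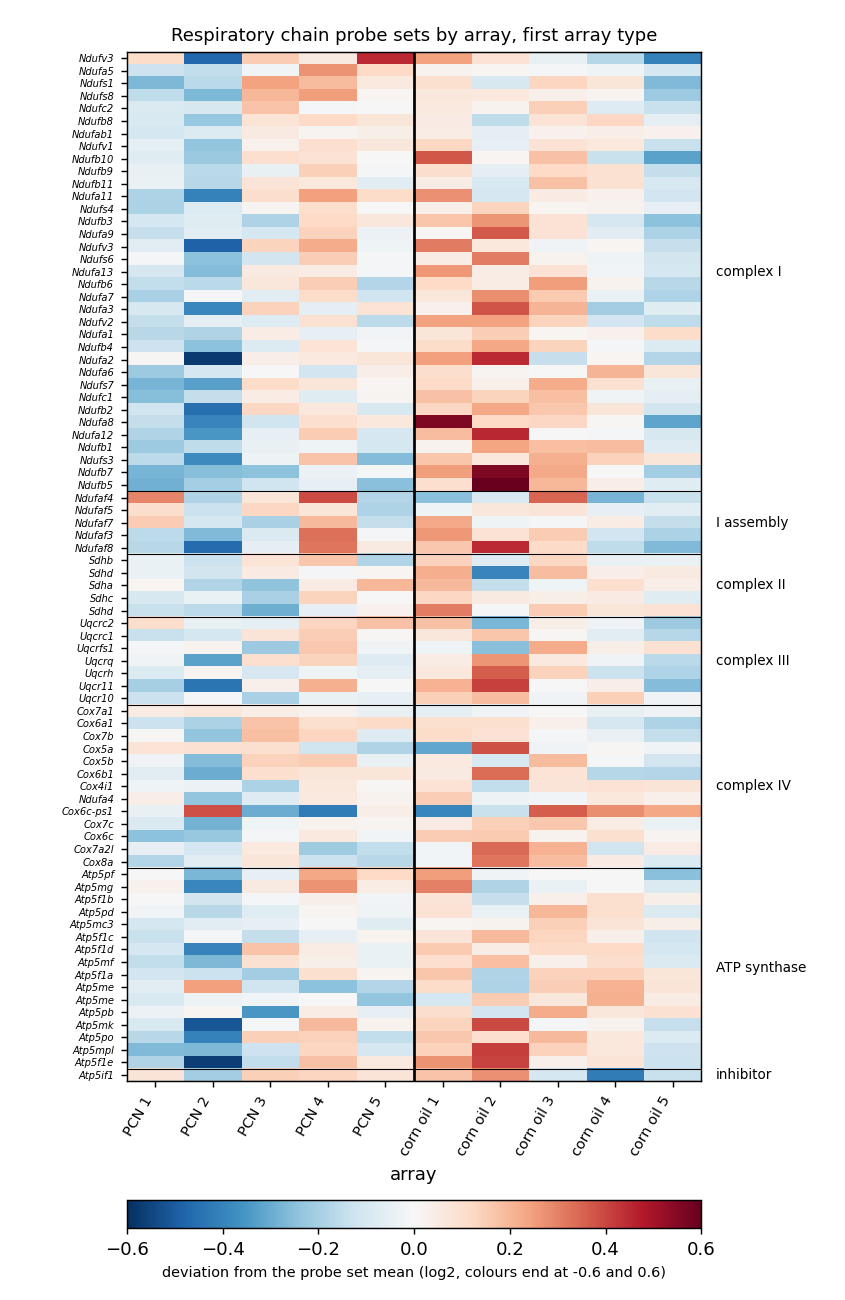
Deviation of each of the 82 tested probe sets (rows, grouped by complex) from its own mean in each array of the first type (columns, PCN left of corn oil), in log2 units with red above and blue below the mean. PCN replicate 2 is blue through most complexes, PCN replicate 4 mostly red, corn oil replicates 1 to 3 mostly red and corn oil replicate 5 mostly blue.

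Most members were read by bright probe sets, and 57 of the 82 tested members fell in the brightest 10% of all tested probe sets. They were therefore set beside non-members of the same brightness, in 20 bins of equal size. The median log2 fold change of a member's bin was 0.03, and the median difference of a member from its bin was -0.11. The median difference from the bin was -0.13 for complex I, -0.10 for complex II, -0.05 for complexes III and IV and -0.11 for ATP synthase. In all, 69 of 82 members lay below their bin. The count was 34 of 35 for complex I, 5 of 5 for complex II, 5 of 7 for complex III, 8 of 13 for complex IV and 15 of 16 for ATP synthase. Among the 1178 non-members at least as bright as the members' lower quartile (10.97), 48.5% had a negative value, 10.7% were lower at an unadjusted p below 0.05, close to the 11% of members, and 6.45% were called, with a median of 0.01. With each array's bin median taken off, the members' averages were -0.10, -0.13, -0.07, 0.04 and -0.06 in PCN livers 1 to 5, against 0.07, 0.10, 0.09, 0.05 and -0.04 in corn oil livers 1 to 5. Corn oil livers 1 to 4 then lay above every PCN liver, narrowly for PCN liver 4, and corn oil liver 5 remained within the PCN range.

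**Figure D4:**
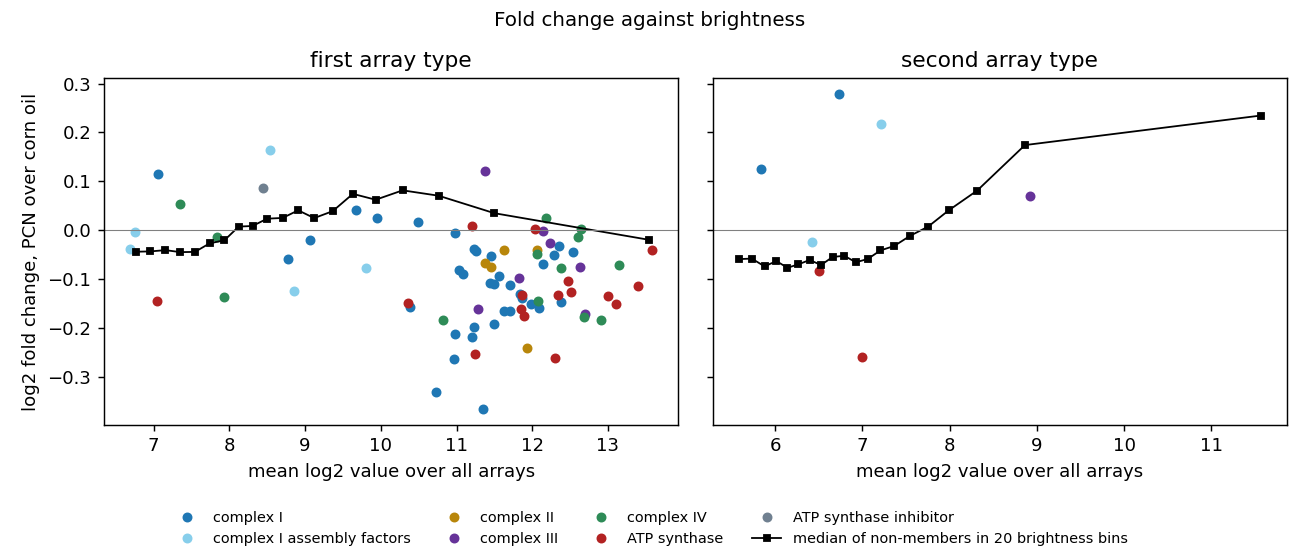
Log2 fold change of PCN over corn oil (vertical axis) against mean log2 value over all arrays (horizontal axis) for the tested members of each array type, coloured by complex. The black line joins the medians of non-members in 20 brightness bins; on the first array type 69 of 82 members lie below their bin, while on the second the line climbs to 0.23 in the brightest bin and 3 of 7 members lie below it.

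The second array type held few and mostly dim probe sets of the chain, and their median was above 0. Of 8 members 7 were tested, Ndufa9 being under the filter of 5.51. By limma 0 of 7 were called, against 5.4% of all tested probe sets, and 1 was lower at an unadjusted p below 0.05, beside 14.1% of all tested probe sets. Groups overlapped for all 7, where 5.32% of tested probe sets were lower with no overlap. The median log2 fold change was 0.07, with 3 of 7 negative, beside -0.03 and 58.9% negative over all tested probe sets. That median stayed at 0.07 when PCN replicate 5 was left out, but was 0.03 with corn oil replicate 1 omitted, 0.04 in the absence of PCN replicate 1 and 0.12 after removal of PCN replicate 3. All 7 intervals lay within a 1.5-fold change, beside 89.6% of all tested probe sets.

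Atp5po, the oligomycin sensitivity protein that joins the stator stalk to F1, had 6.82, 6.73, 7.00, 6.83 and 7.00 in PCN livers 1 to 5, against 7.24, 7.07, 7.00 and 7.23 in corn oil livers 1, 3, 4 and 5. PCN livers 1, 2 and 4 lay below every corn oil liver, and PCN livers 3 and 5 met corn oil liver 4 at the same level. Its log2 fold change was -0.26 ± 0.08 (SE, limma, adjusted p = 0.0771), and on the first array type it was -0.18. Without PCN replicate 5 the second array type gave -0.29 (limma, adjusted p = 0.0399), the single setting in which a member was called. Calls were also far more common over all 10693 tested probe sets in that setting. There were 905 higher and 572 lower by limma, beside 402 and 175 with that array kept. Atp5f1c had -0.08 on the second array type and -0.13 on the first. Ndufaf7, an assembly factor that methylates a core subunit, had -0.02 and -0.04, and Uqcrc2 0.07 and 0.12. The median of non-members as bright as Uqcrc2 on the second array type was 0.17. After quantile normalization that array type gave -0.13 for Uqcrc2 and 0.03 for Ndufaf7, each with its sign turned.

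The complex I genes measured on both array types disagreed in sign. Ndufa12, an accessory subunit added late in assembly, had log2 values on the second array type of 6.86, 6.74, 7.31, 6.66 and 6.67 in PCN livers 1 to 5, against 6.33, 6.84, 6.60 and 6.53 in corn oil livers 1, 3, 4 and 5. PCN liver 3 was highest, corn oil liver 1 lowest, and corn oil liver 3 lay within the PCN range. The log2 fold change was 0.28 (interval -0.02 to 0.57), against -0.21 (-0.48 to 0.06) on the first array type. For the accessory subunit Ndufa7 the values were 0.12 (-0.01 to 0.26) on the second and -0.11 (-0.33 to 0.10) on the first. The assembly factor Ndufaf1, measured on the second array type alone, had 0.22 (-0.12 to 0.56). The same livers were hybridized to both types, per the replicate numbers of the labels, and where each probe set lies in its transcript was not examined here.

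Other genes of the chain's pathway were also without a call on the first array type. They comprised 61 tested electron carriers, assembly factors named outside the Nduf family, citrate cycle enzymes, carriers and regulators, with 2 subunits encoded by mitochondrial DNA. By limma 0 were called, and 8 (13.1%) had an unadjusted p below 0.05 (5 lower and 3 higher), beside 17.7% of all tested probe sets. Of the 61, 38 were negative and the median was -0.04. The smallest adjusted p was 0.0594, for Polrmt, the RNA polymerase of mitochondria (-0.36). Coq8a, an atypical kinase needed for ubiquinone synthesis, had the largest log2 fold change, -0.82 (limma, adjusted p = 0.0796). Transcripts of mitochondrial DNA were represented by COX1 and COX2, catalytic subunits of complex IV, with log2 fold changes of 0.01 and 0.02. Cyc1, the cytochrome subunit of complex III that the symbol rule leaves out, had -0.08, and Etfb, part of the flavoprotein that feeds electrons from fatty acid oxidation into the chain, had -0.22.

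On the second array type 4 of 19 such genes were called by limma, 3 higher and 1 lower, beside the 5.4% of all tested probe sets. Pprc1, a growth-regulated coactivator of the PGC-1 family that binds nuclear respiratory factor 1, had log2 values of 7.89, 7.37, 7.63, 7.58 and 7.29 in PCN livers 1 to 5, against 6.44, 6.96, 6.87 and 6.75 in corn oil livers 1, 3, 4 and 5. Every PCN liver lay above every corn oil liver. The share of all tested probe sets separated upward in this way is not given here. Pprc1 rose by a log2 fold change of 0.79 ± 0.13 (SE, limma, adjusted p = 0.00969). Ppargc1a, the PGC-1α coactivator that fasting induces in liver and that drives mitochondrial and gluconeogenic genes, had 7.06, 7.30, 6.98, 7.08 and 7.28 in PCN livers 1 to 5, against 7.28, 7.82, 7.88 and 7.90 in corn oil livers 1, 3, 4 and 5. Corn oil livers 3, 4 and 5 were above every PCN liver, while corn oil liver 1 lay within the PCN range. Ppargc1a fell by 0.58 on the log2 scale (SE 0.13, limma, adjusted p = 0.0285), and its probe set on the first array type was under the filter. That call was lost when any of corn oil replicates 3, 4 or 5 or PCN replicates 1, 3 or 4 was left out, with adjusted p values of 0.0571 to 0.0929.

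Yy1, a zinc finger factor with sites in many promoters of the chain, had 9.91, 9.99, 9.95, 9.70 and 9.63 in PCN livers 1 to 5, against 9.06, 9.35, 9.36 and 9.65 in corn oil livers 1, 3, 4 and 5. Corn oil liver 5 lay just above the lowest PCN liver, and the other corn oil livers lay below all PCN livers. Yy1 rose by 0.48 ± 0.12 (SE, limma, adjusted p = 0.0466) in a brightness bin whose median was itself 0.23. A second Yy1 probe set of the same array type had 0.19 (limma, adjusted p = 0.291). The call was lost in 11 of 19 alternatives, among them quantile normalization (0.24, adjusted p = 0.18), the replicate number as a block (adjusted p = 0.146) and leaving out any array but corn oil replicate 5 or PCN replicate 5 (adjusted p of 0.0632 to 0.126). On the first array type its log2 fold change was -0.04. Coq2, the enzyme that attaches the side chain of ubiquinone, had 8.00, 7.99, 7.90, 8.16 and 7.86 in PCN livers 1 to 5, against 7.21, 7.53, 7.51 and 7.82 in corn oil livers 1, 3, 4 and 5. All PCN livers were above all corn oil livers, narrowly so for corn oil liver 5, again with no share over all tested probe sets. Coq2 rose by 0.46 ± 0.11 (SE, limma, adjusted p = 0.0361). That call was lost in 9 of 19 alternatives, namely quantile normalization (adjusted p = 0.0542), the replicate block (adjusted p = 0.0974) and leaving out any array but corn oil replicate 5 or PCN replicate 5 (adjusted p of 0.0686 to 0.0997). Nuclear respiratory factor 1 (Nrf1) had 0.27 (limma, adjusted p = 0.0606), and Tfam, which packages mitochondrial DNA, had 0.26 on the first array type (limma, adjusted p = 0.153).

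**Figure D5:**
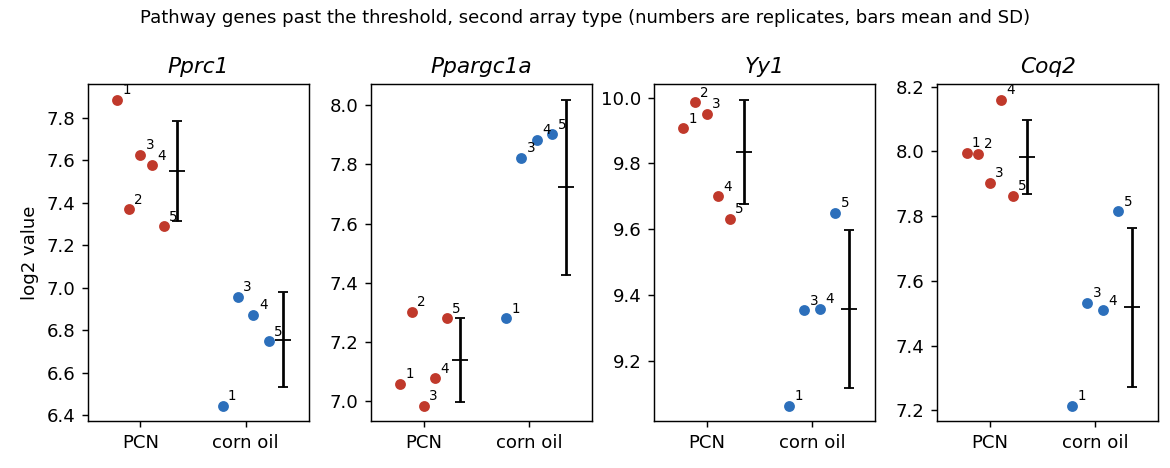
Log2 values (vertical axes, each with its own range) of the 4 genes that serve the respiratory chain and were called on the second array type, for 5 PCN (red) and 4 corn oil (blue) livers with replicate numbers. Bars show mean and SD. The Pprc1 and Coq2 groups do not overlap, a separation for which no share over all tested probe sets is given. Corn oil liver 1 sets the lower end of the Ppargc1a corn oil group.

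Since some of these regulators act through promoters of the chain, the members' promoters were searched for their motifs. RefSeq promoters (assembly GRCr8, 250 bases before to 50 after the start) were found for 77 of the 85 member genes. The motifs were GCGCANGCG for nuclear respiratory factor 1, CCGGAAG for the ETS family that includes GABPA, AAGATGGCG for YY1 and TCAAGGTCA for estrogen-related receptor alpha, on both strands, and no matches to different motifs overlapped in the members. The promoters of 4 genes are shown, 5′ to 3′ on the gene's strand, with matches in capitals. Atp5mc3, at chr3:79220615-79220914 (minus strand), is the member whose groups did not overlap, and Ndufa6, at chr7:115750268-115750567 (minus strand), is the single member with 3 kinds of motif. Cox4i1, at chr19:65630133-65630432 (plus strand), has CCGGAAG 2 times close to the start, and Ndufb5, at chr2:117447355-117447654 (plus strand), which had the largest log2 fold change, has no match.
Atp5mc3: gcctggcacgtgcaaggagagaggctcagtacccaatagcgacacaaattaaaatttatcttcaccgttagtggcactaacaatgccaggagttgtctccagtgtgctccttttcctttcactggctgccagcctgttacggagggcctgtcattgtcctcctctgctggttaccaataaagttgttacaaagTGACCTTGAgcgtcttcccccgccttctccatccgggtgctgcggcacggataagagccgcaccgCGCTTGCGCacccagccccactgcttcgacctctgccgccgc
Ndufa6: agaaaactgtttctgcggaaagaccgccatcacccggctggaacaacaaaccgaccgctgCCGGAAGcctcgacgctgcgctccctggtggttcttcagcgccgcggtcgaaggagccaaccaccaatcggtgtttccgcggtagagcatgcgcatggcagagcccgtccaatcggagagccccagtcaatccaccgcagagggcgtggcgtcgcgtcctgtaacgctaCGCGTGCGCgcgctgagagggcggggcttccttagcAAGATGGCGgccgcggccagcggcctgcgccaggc
Cox4i1: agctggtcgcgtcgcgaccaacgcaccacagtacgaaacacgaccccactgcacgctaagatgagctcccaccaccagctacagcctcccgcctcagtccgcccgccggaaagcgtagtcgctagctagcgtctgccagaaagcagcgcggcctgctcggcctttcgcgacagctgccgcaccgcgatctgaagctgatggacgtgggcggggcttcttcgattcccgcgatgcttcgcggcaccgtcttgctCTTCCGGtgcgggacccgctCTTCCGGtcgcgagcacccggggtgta
Ndufb5: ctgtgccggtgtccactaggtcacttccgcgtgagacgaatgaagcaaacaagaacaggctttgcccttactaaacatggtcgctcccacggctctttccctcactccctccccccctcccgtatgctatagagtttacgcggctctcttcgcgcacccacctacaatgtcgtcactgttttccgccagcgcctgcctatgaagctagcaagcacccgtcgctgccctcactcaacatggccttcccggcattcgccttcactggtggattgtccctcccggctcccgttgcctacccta

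A larger share of these promoters than of others held each motif, which is given as a description with no test. GCGCANGCG was found in 19 of 77 (24.7%), beside 6.26% of all 27457 promoters and 11.2% of those of other genes on the arrays. CCGGAAG was found in 22 (28.6%), beside 9.22% and 15.1%, and AAGATGGCG in 11 (14.3%), beside 1.93% and 3.11%. TCAAGGTCA was found in 2, Atp5mc3 and Sdhd, which is 2.6% beside 0.412% and 0.186%. At least 1 motif stood in 43 promoters and none in 34, and 10 held more than 1 kind. A match is a run of letters and not a measured site. Genes with and without a motif were compared by their medians, with no test. The median log2 fold change was -0.09 in 19 genes with GCGCANGCG and -0.08 in 53 without, -0.11 in 21 with CCGGAAG and -0.08 in 51 without, and -0.09 both in 11 with AAGATGGCG and in 61 without. It was -0.18 in the 2 genes with TCAAGGTCA and -0.09 in 70 without. Ndufa6 had a log2 fold change of -0.16 (interval -0.32 to 0.00), between the values of Atp5mc3 and Ndufb5.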

How the data were processed

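Per the labels, total RNA from each liver was extracted with RNeasy columns, treated with DNase and hybridized as biotinylated cRNA to 2 Affymetrix array types. The authors deposited log2 values per probe set. The submitters' processing notes name MAS5, while background correction, summarization and normalization of these values are not given in the sources used here. The base of the logarithm was taken from the range of the values (4.31 to 15.2 and 3.10 to 14.1).

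Values were used as deposited, and each array type was fitted alone with limma 3.58.1 in R 4.3.3 (treatment only, intensity trend, two-sided, Benjamini-Hochberg over the whole table, threshold 0.05). Left out were 57 control probe sets per array type and dim probe sets, whose mean fell under the 30th percentile. The labels call the samples biological replicates, and precision is limited by the number of arrays. All 97 member probe sets were matched by gene ID to current symbols of RefSeq GRCr8. Named were, per complex and array type, the largest and smallest absolute log2 fold change, a set of well known subunits, and every called gene; other members named are said in the text to be picked after their values were seen. The fit was tested on simulated data. Other filters, scalings, a pseudocount of 16, other variance models, a replicate block and leaving out each array were tried. The members and lists were chosen with earlier results of these data known. Same-numbered arrays did not deviate together on the first array type (correlations of -0.301 to 0.284) and did so weakly on the second (0.0202 to 0.201), so the main comparison has no block.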

Additional observations from a re-analysis of the deposited data

Results flagged for a closer look

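Within groups of 4 or 5 arrays, 9 of 110 checked values had 1 array far from the rest, measured by its gap to the nearest array over the range of the group, and chance alone gives about 1 in 20. On the first array type 4 of these were corn oil replicate 2, each time the lowest of its group and each time a bright subunit. Cox4i1 was 13.00 there (the other corn oil livers 13.22 to 13.23), Atp5f1a 12.82 (13.07 to 13.16), Atp5f1b 13.45 (13.62 to 13.68) and Ndufab1 12.30 (12.38 to 12.40). The same array was the highest of its group for Ndufb5, Cox8a and Atp5f1e, so it was not low for the chain as a whole. The remaining value of that array type was Atp5if1 in PCN replicate 2, at 8.23 (the other PCN livers 8.52 to 8.58).

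On the second array type PCN replicate 5 was the highest PCN array for Atp5f1c, at 6.59 (the others 6.41 to 6.46), and for Ndufaf7, at 6.66 (6.31 to 6.39). Its median over all probe sets was 6.32, beside 6.25 to 6.26 in the other PCN arrays and 6.32 to 6.33 in corn oil. PCN replicate 4 was highest for Ndufa7, at 6.04 (5.82 to 5.88). Corn oil replicate 1 was lowest for Ppargc1a, at 7.28 (7.82 to 7.90), which is within the range of the PCN livers.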

How the results depend on the processing

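On the first array type 0 members were called in each of the 20 alternatives, and the median log2 fold change stayed negative. It ran from -0.13 (without corn oil replicate 5) to -0.05 (without PCN replicate 2) when 1 array was left out, and from -0.13 to -0.07 otherwise. The count lower at an unadjusted p below 0.05 was 2 to 11 when 1 array was left out, 21 after quantile normalization and 22 after cyclic loess. The share of all tested probe sets lower at this level after these normalizations is not given here. Lower calls over all probe sets rose with them as well, from 105 to 181 and 168. The smallest adjusted p of a member in any setting of this array type was 0.051 (Ndufs3, limma, quantile normalization). On the second array type the median of 0.07 became 0.023 with a filter at the 50th percentile and 0.12 with a common median, and 0.025 to 0.12 when 1 array was left out. The count of members called lower was 0 to 1 when 1 array was left out, the 1 being Atp5po without PCN replicate 5 (-0.29, adjusted p = 0.0399). With the replicate number as a block, limma called 0 members on either array type, with medians of -0.10 and 0.04, and the block on the second array type sets aside PCN replicate 2, which has no partner. Over all probe sets the block gave 177 higher and 62 lower calls on the first array type, beside 256 and 105 without it, and 162 and 40 on the second, beside 402 and 175. Calls on the first array type were 247 higher and 181 lower after quantile normalization, 270 and 168 after cyclic loess, and 768 and 283 with array weights. On the second they were 518 and 72 with a common median, 868 and 607 with array weights, and 905 and 572 without PCN replicate 5. Among 40 named member values 15 turned sign in some setting, all uncalled and between -0.13 and 0.08 after the turn, including Uqcrc2 on the second array type (-0.13 after quantile normalization). Alternatives for the called pathway genes were added after seeing the data: Pprc1 stayed called in every setting, with adjusted p of 0.00348 to 0.0332, and Yy1 was also lost with no filter and cyclic loess (0.29).

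Precision is limited by 4 or 5 arrays a group: the median SE was 0.10 for tested members of the first array type, close to the median difference itself. Where an interval includes both 0 and the value of the median, a difference of that size is neither shown nor absent.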

Other observations

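Among cell type markers, each taken by its brightest probe set, Cidea was the only one called by limma on the first array type. Cidea, a lipid droplet protein of brown fat and of fat-laden liver, averaged 8.79 ± 0.30 in PCN livers (SD, n = 5) and 8.12 ± 0.20 in corn oil livers (SD, n = 5), and rose by a log2 fold change of 0.67 (limma, adjusted p = 0.0293). Of the other brown fat genes, Ucp1 (5.89) and Fabp4 (5.57) were under the filter of that array type. Adipoq was tested on the second array type (mean 5.81) and had -0.08 (limma, adjusted p = 0.583). The 5 Kupffer cell markers of the first array type were all positive and uncalled, from 0.02 for Csf1r to 0.30 for C1qb. On the second Adgre1 had 0.29 and Cd163 0.40, both uncalled, while a second, dimmer probe set of Cd163 was called at 0.58 (limma, adjusted p = 0.0371). The median of non-members as bright as the Cd163 probe set with 0.40 was itself 0.23, and for Adgre1 it was -0.08. Of 7 stellate cell markers of the first array type 0 were called by limma, 2 were higher at an unadjusted p below 0.05 and 3 were negative. They ran from -0.16 for Lrat to 0.43 for the collagen Col3a1 (limma, adjusted p = 0.0824), and Des had -0.19 on the second array type. Lymphocyte markers of the first array type were under the filter, whereas on the second Cd3e, Cd8a and Ms4a1 were negative and uncalled (-0.15, -0.15 and -0.24). All 3 were lower at an unadjusted p below 0.05 (limma), beside 14.1% of all tested probe sets of that array type. A second Cd8a probe set had -0.26 (limma, adjusted p = 0.0932).

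Genes around the chain gave values on both sides of 0. Vdac3, a channel of the outer mitochondrial membrane, had 0.21, and the 2 probe sets of Vdac1 had -0.09 and 0.15. Within the citrate cycle Idh3g had -0.27, while Mdh2 had 0.18 and Cs 0.19, and 0 of 11 enzymes were called by limma, with 1 at an unadjusted p below 0.05. Cox19 and Sco1, which serve copper delivery to complex IV, had log2 fold changes of 0.29 (first array type) and 0.40 (second), uncalled (limma, adjusted p = 0.123 and 0.0828). The median of non-members as bright as Sco1 was 0.17, and the copper chaperone Cox17 had -0.08 on the first array type.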
